A study of Mus musculus with 6 samples.

Results

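The high-affinity IgE receptor is built from an alpha chain (Fcer1a), a beta chain (Ms4a2) and a gamma chain (Fcer1g). The rows of these 3 genes were taken by symbol from a table of 17909 genes, and all 3 were present. The alpha chain holds the binding site for IgE, the beta chain spans the membrane several times and amplifies the signal, and the gamma chain is a disulfide-linked dimer that carries the signalling motif (ITAM) for the kinase Syk. In rodents the alpha chain reaches the cell surface only together with beta and gamma. Mast cells and basophils carry the complete receptor, and antigen that cross-links its IgE makes them release their granules. The gamma chain is also the partner of activating IgG receptors and other receptors on macrophages and granulocytes.

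Bulk RNA was sequenced from sorted embryonic mouse cells. The embryos had a C57BL/6xFVB background and carried Csf1r-iCre, a Cre driven by the Csf1r gene that marks cells and their descendants. There were 6 libraries of 1 sample each. They held skin cells (E16.5), mast cell progenitors (MCPs) of limb (E14.5 and E11.5) and liver (E11.5), and, also from E11.5 liver, macrophages and erythro-myeloid progenitors (EMPs). The skin library is titled as MCPs and described as mast cells. The reporter allele and the number of embryos pooled are not stated in the labels. The liver MCP and EMP columns are marked LiB7_pos and LiB7_neg, which the labels do not explain. The full sort gates are not given, so it is unknown whether a receptor chain took part in a gate. With 1 library per group there was no replicate error and no test, and intervals below cover counting error only. In pooled RNA, fewer cells with a transcript and less transcript per cell cannot be told apart.

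Levels are FPKM, reads per kilobase of transcript scaled to sequencing depth. The spacing of low FPKM values gave an estimated depth of 8900000 to 12700000 reads per library. Of 24 mast cell markers, an FPKM of 10 or more was found for 5 in EMPs, 6 in liver MCPs, 10 and 20 in E11.5 and E14.5 limb MCPs, 19 in skin and 3 in the macrophage-labelled library. The macrophage-labelled library held granulocyte as well as macrophage genes. There 8 eosinophil markers summed to 10025 FPKM, 12 neutrophil and monocyte markers to 8097 (10430 in EMPs) and 13 macrophage markers to 2723, of which Lyz2 made up 2633 and Csf1r 34.1. The skin library also stood apart. Of 1660 genes at 10 FPKM or more in the other 5 libraries it listed 26 at 0, while the other libraries had 0 such genes. A value of 0 in skin is therefore given only as listed.

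All 3 genes lie on the minus strand of GRCm38. Fcer1a spans 173221284 to 173227214 of chromosome 1 (5 exons, a transcript of 998 bases), Fcer1g 171229572 to 171234365 of the same chromosome (5 exons, 674 bases) and Ms4a2 11615523 to 11623719 of chromosome 19 (7 exons, 1010 bases for the transcript used here, of 5 annotated). The RefSeq table (GRCm38.p6) gave 1 promoter for each gene. The bases upstream of every annotated start are shown because the 3 chains were at such unequal levels in the same libraries. Capitals mark the GATA words (AGATAA or AGATAG or TGATAA or TGATAG, on either strand), the core letters bound by Gata1 and Gata2, which are known regulators of mast cell genes.
Fcer1a, chr1:173227233-173227479: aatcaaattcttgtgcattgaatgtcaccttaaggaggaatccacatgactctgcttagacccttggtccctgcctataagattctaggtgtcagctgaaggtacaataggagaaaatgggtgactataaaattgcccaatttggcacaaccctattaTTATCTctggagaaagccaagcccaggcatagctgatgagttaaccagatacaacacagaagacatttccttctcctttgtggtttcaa
Ms4a2, chr19:11623791-11623969: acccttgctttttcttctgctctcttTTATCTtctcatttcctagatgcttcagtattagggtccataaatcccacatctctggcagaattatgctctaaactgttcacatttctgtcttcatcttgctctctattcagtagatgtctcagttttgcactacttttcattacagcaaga
Fcer1g, chr1:171234366-171234599: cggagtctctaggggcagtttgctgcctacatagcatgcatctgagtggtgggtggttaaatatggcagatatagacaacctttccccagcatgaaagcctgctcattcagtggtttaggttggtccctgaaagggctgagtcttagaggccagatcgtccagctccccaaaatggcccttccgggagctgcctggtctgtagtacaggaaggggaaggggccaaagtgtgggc

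In the full RefSeq window of 300 bases the Ms4a2 promoter held 3 GATA words, the Fcer1a promoter 1 and the Fcer1g promoter 0. Of 32817 promoters of that length 29.8% held at least 1. The other Ms4a2 words began 37 and 11 bases before the start on which the window is set. They lay downstream of another annotated start of Ms4a2, and so outside the stretch printed above.
Ms4a2, chr19:11623743-11623764: ctggagacTTATCTgacaagta
Ms4a2, chr19:11623717-11623738: ccgcatgaAGATAAtcattggt
The word GAGGAA, part of sites of the ETS factor Spi1 (PU.1), was found in the Fcer1a window 1 time and in the other windows 0 times, against 28.3% of all promoters. The E-box CANNTG had 3, 0 and 2 matches for Fcer1a, Ms4a2 and Fcer1g, and 72.3% of promoters held one. These are matches of letters and say nothing of binding.

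The chains reached 10 FPKM one after the other, gamma before beta before alpha. Fcer1g was already abundant in EMPs, Ms4a2 first stood at 10 FPKM or more in liver MCPs, and Fcer1a did so in skin alone. Of 3879 genes that reached 10 FPKM anywhere on the path from EMPs through liver and limb MCPs to skin, 75.2% did so first in EMPs like Fcer1g, 11.7% in liver MCPs like Ms4a2 and 2.53% in skin like Fcer1a. The limb libraries at E11.5 and E14.5 were first for 6.42% and 4.2%. With a limit of 1 FPKM both Fcer1g and Ms4a2 already passed in EMPs and Fcer1a in liver MCPs. The order is one of libraries that differ in tissue and age together.

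Fcer1a, the IgE-binding chain, was listed at 0 FPKM in EMPs, and stood at 1.55 in liver MCPs, 1.26 in E11.5 limb MCPs, 2.19 in E14.5 limb MCPs, 21.9 in skin and 0.09 in the macrophage-labelled library. These values correspond to about 0, 18, 11, 24, 193 and 1 reads. Skin thus held the bulk of the alpha chain signal, and liver MCPs and both limb libraries stood at 5.77% to 10.02% of the skin value. A count of 0 in EMPs allows 0.249 FPKM by the limit of 3 reads and 0.306 by the exact 95% interval. Liver MCPs and both limb libraries could not be put in order: E14.5 limb MCPs stood 1.41 times above liver MCPs (95% counting interval 0.755 to 2.84), and liver MCPs 1.23 times above E11.5 limb MCPs (0.525 to 2.75). The macrophage-labelled library could not be placed against EMPs either.

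Ms4a2, the signal-amplifying chain, read 1.80 FPKM in EMPs, 23.8 in liver MCPs, 28.6 in E11.5 limb MCPs, 41.0 in E14.5 limb MCPs, 47.3 in skin and 0.62 in the macrophage-labelled library. In contrast to Fcer1a, liver MCPs had already 50.3% of the skin value. The 4 mast cell lineage libraries lay far above the others. Their spread depended on scaling: as TPM, which sets all libraries to equal sums, they stood at 155, 204, 275 and 563 from liver MCPs to skin. As deposited, neighbours among them were apart beyond counting error, E14.5 limb MCPs at 1.43 times E11.5 limb MCPs (1.22 to 1.68), E11.5 limb MCPs at 1.20 times liver MCPs (1.01 to 1.43) and skin at 1.15 times E14.5 limb MCPs (1.01 to 1.32). The lowest library had about 7 reads of Ms4a2.

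Fcer1g, the shared signalling chain, read 68.3 FPKM in EMPs, 74.1 in liver MCPs, 105 in E11.5 limb MCPs, 164 in E14.5 limb MCPs, 449 in skin and 138 in the macrophage-labelled library. No library was without it, and the macrophage-labelled one fell between the limb libraries. Among all genes it ranked 376 in EMPs and 15 in skin, where Ms4a2 ranked 217 and Fcer1a 553. EMPs and liver MCPs did not differ beyond counting error (1.09 times, 0.963 to 1.22).

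**Figure D1:**
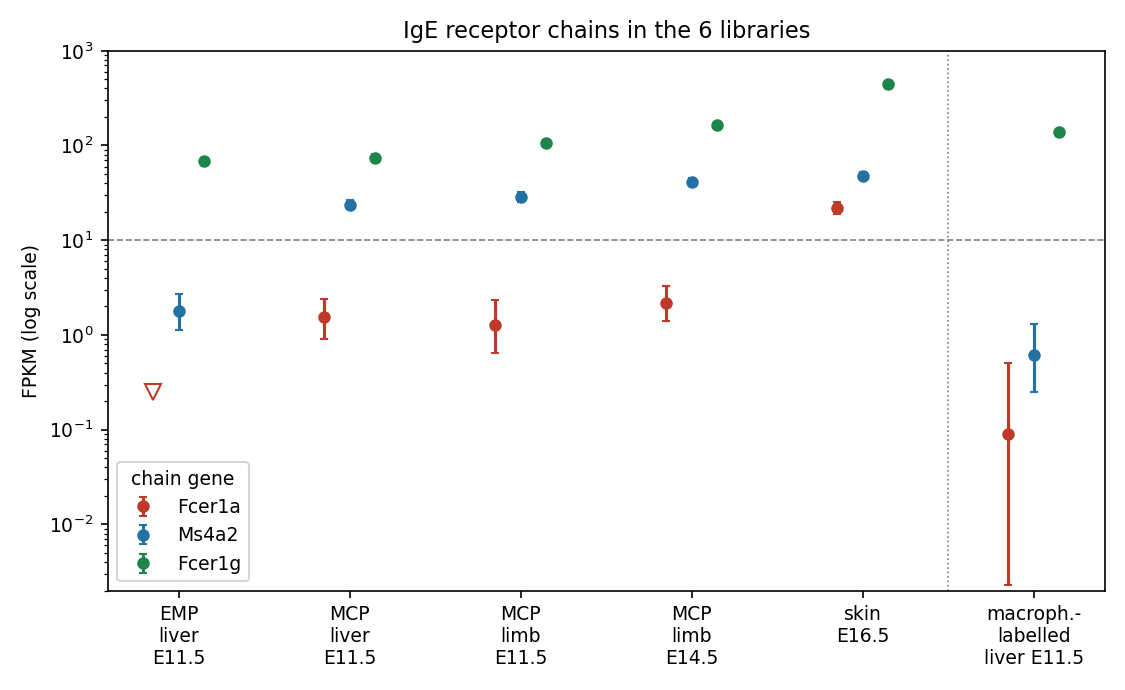
FPKM of the 3 chain genes (log axis) in each of the 6 libraries, 1 library per group, with 95% counting intervals as bars; the open triangle is the level of 3 reads for Fcer1a in EMPs (0.249), the dashed line is 10 FPKM, and the dotted line sets off the macrophage-labelled library. Fcer1a crosses the dashed line in skin alone (21.9).

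Ratios between chains inside a library do not depend on how libraries are scaled to each other. Fcer1g over Ms4a2 was 3.11 (2.69 to 3.60) in liver MCPs, 3.68 (3.16 to 4.29) in E11.5 limb MCPs, 3.99 (3.57 to 4.45) in E14.5 limb MCPs and 9.49 (8.56 to 10.54) in skin. EMPs, at 37.9 (24.8 to 61.0), and the macrophage-labelled library, at 222 (106 to 548), lay far above. The ratio of gamma to beta thus rose from 3.11 to 3.99 over liver and limb MCPs, whose intervals overlapped, and gamma outran beta further in skin.

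Ms4a2 over Fcer1a was 15.4 (9.68 to 26.7) in liver MCPs, 22.7 (12.1 to 44.6) in E11.5 limb MCPs, 18.7 (12.3 to 29.2) in E14.5 limb MCPs and 2.17 (1.82 to 2.58) in skin. The skin interval did not overlap the other 3, which overlapped one another. In EMPs the ratio was 7.23 with Fcer1a set at 3 reads (lower 95% counting limit 5.41). In the macrophage-labelled library the ratio could not be set (6.89, 0.888 to 312, from 1 read of Fcer1a). Fcer1g over Fcer1a was 47.8, 83.6, 74.7 and 20.6 in the 4 mast cell lineage libraries in that order, with skin again the lowest.

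As a share of the summed FPKM of the 3 chains, Fcer1a made up 1.56% in liver MCPs, 0.932% and 1.06% in the limb libraries and 4.22% in skin. Ms4a2 made up 23.9%, 21.2%, 19.8% and 9.13% in the same libraries and 2.57% in EMPs. Fcer1g held the rest, from 74.5% (liver MCPs) up to 99.5% (macrophage-labelled library). The alpha chain had the lowest FPKM of the 3 in each library, though in the macrophage-labelled library its order with Ms4a2 lay within counting error.

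**Figure D2:**
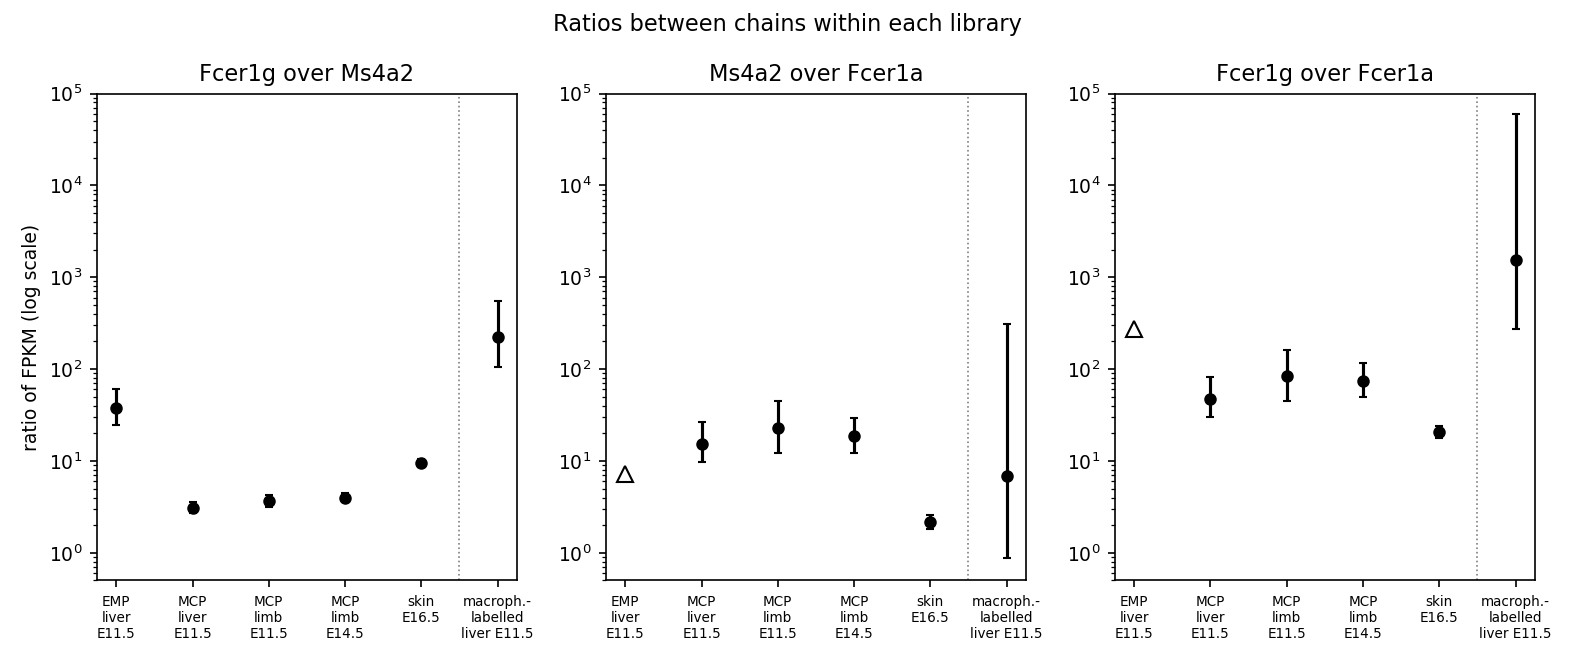
Ratio of FPKM between pairs of chains (log axes) in each library, with 95% counting intervals as bars. Open triangles are ratios with Fcer1a set at 3 reads in EMPs. Fcer1g over Ms4a2 is lowest in the liver and limb MCPs (3.11 to 3.99), and Ms4a2 over Fcer1a is lowest in skin (2.17).

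In liver MCPs against liver EMPs, Ms4a2 was the chain that separated the libraries, at 23.8 FPKM in MCPs against 1.80 in EMPs (13.2-fold, counting interval 8.56 to 21.4; difference 3.15 on the log2(FPKM + 1) scale). The call rule asked for 10 FPKM or more in either library and a difference of 2 or more either way (4-fold). Called higher were 1.78% of the 3369 genes tested and lower 3.09%, and 0.445% lay as high as Ms4a2. Fcer1a stood at 1.55 against 0, which is 6.23-fold with EMPs set at 3 reads (lower 95% counting limit 4.503), but under the expression limit. Fcer1g, at 74.1 against 68.3, was not called (0.12, against a median of -0.18 over the genes tested). Erythroid genes were also higher in this MCP library (5 of 15 called, 8 passing the expression limit, summed FPKM 377 against 88.3). Neutrophil genes were lower (6 of 12 called, 9 passing, 1052 against 10430). The part of both lists in these values was not tested.

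In the macrophage-labelled library Fcer1g was 138 FPKM, against 68.3 in EMPs (2.02-fold, 1.82 to 2.25). It was not called. Of the 3179 genes tested 5.82% lay as high, 2.39% were called higher and 0.661% lower. The chains that complete the IgE receptor did not follow, with Ms4a2 at 0.62 against 1.80 and Fcer1a at 0.09 against 0. Eosinophil markers moved with Fcer1g here (6 of 8 called higher, 7 passing the expression limit, summed FPKM 10025 against 269.8 in EMPs). So did 2 of 13 macrophage markers (4 passing, 2723 against 251.06). Of 12 neutrophil and monocyte markers (12 passing) 7 were called higher, though their sum was 8097 against 10430. The part of these lists in the Fcer1g value was not tested.

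Liver MCPs set against the macrophage-labelled library had Ms4a2 at 23.8 FPKM, against 0.62 (38.4-fold, 18.2 to 95.3; difference 3.94). The call stands beside 3.72% of 3254 genes called higher and 5.99% lower. Fcer1g went the other way at 74.1 against 138, a difference of -0.89 that was not called. Fcer1a, at 1.55 against 0.09, rested on 1 read in the macrophage-labelled library (17.2-fold, 2.66 to 702). Other lineages moved in this comparison too. Called lower in liver MCPs were 11 of 12 neutrophil and monocyte markers (12 passing the expression limit) and 7 of 8 eosinophil markers (7 passing). Of 15 erythroid markers 6 were called higher (8 passing). The part of these lists in the chain values was not tested.

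Between limb and liver MCPs of E11.5 no chain passed the call rule. Ms4a2 was 28.6 against 23.8 FPKM, Fcer1g 105 against 74.1 and Fcer1a 1.26 against 1.55, with differences of 0.26, 0.50 and -0.17. This stands beside 1.18% of 3136 genes called higher and 2.04% lower. Limb MCPs at E14.5 against those at E11.5 gave differences of 0.50 for Ms4a2, 0.63 for Fcer1g and 0.50 for Fcer1a. None was called there either, beside 2.39% of 2970 genes called higher and 1.75% lower. The mast cell marker list moved in that second step, with 12 of 24 called higher and 0 lower (20 passing the expression limit). Its median difference was 2.11, against 0.05 over all genes at 1 FPKM or more.

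Skin cells at E16.5 against E14.5 limb MCPs, which differ in tissue and age, brought the alpha chain. Fcer1a was 21.9 FPKM in skin against 2.19 in limb (9.98-fold, 6.43 to 15.8; difference 2.84), beside 1.78% of 2759 genes called higher. Fcer1g was 449 against 164 (2.74-fold, 2.56 to 2.94; difference 1.45), which was not called as deposited. It was called after rescaling to equal sums (2.28) and with median-of-ratios size factors (2.61). Ms4a2 was 47.3 against 41.0, a difference of 0.20 as deposited, 1.03 as TPM and 1.34 with size factors. These differences stand against a median of -1.42 over the genes tested, of which 33.4% were called lower. Relative to that median the chains differed by 4.27 for Fcer1a, 2.88 for Fcer1g and 1.63 for Ms4a2.

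**Figure D3:**
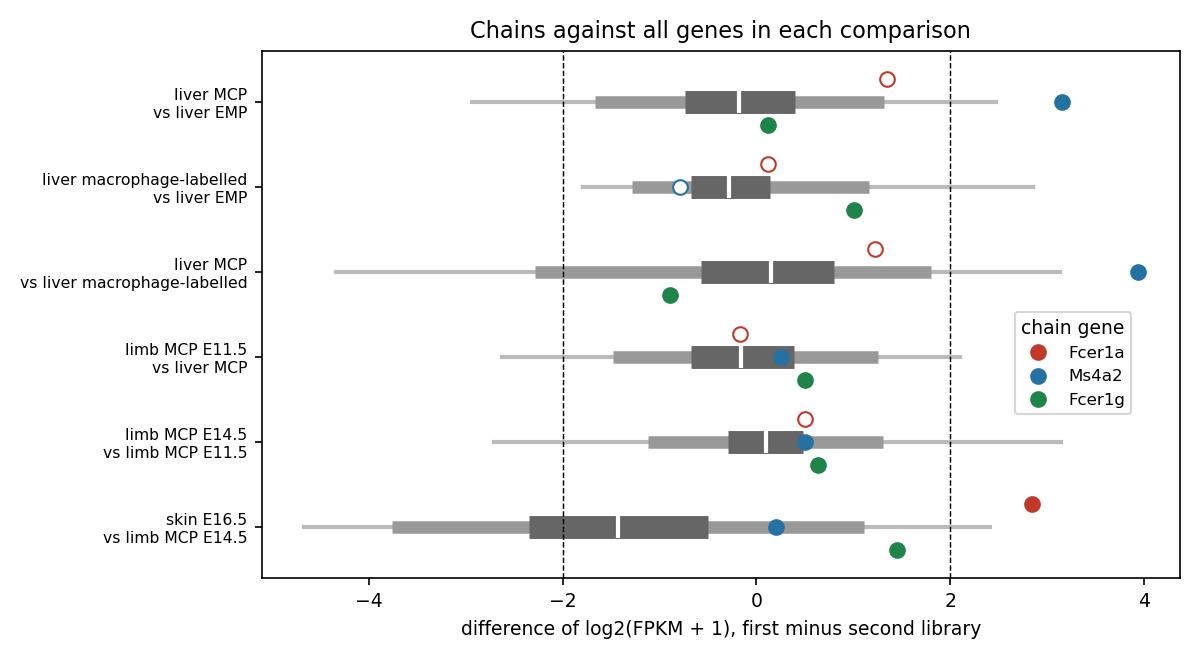
Difference of log2(FPKM + 1) of each chain (dots) in the 6 comparisons, first library minus second; nested bars span the central 50%, 90% and 98% of all genes tested, the white mark is their median, dashed lines are the call limits, and open dots are chains under 10 FPKM in both libraries. Ms4a2 passes the limit against EMPs (3.15) and against the macrophage-labelled library (3.94), and Fcer1a in skin (2.84).

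Set among the 24 mast cell markers, the chains reached 10 FPKM at different steps. Fcer1g belonged with 5 markers that first reached 10 FPKM in EMPs, among them Kit, the stem cell factor receptor, and Cpa3, mast cell carboxypeptidase. Ms4a2 was joined in liver MCPs by 1 marker, the integrin chain gene Itgb7 (10.4 FPKM, against 0.15 in EMPs). If the B7 in the marks of these columns stands for this integrin, its step would follow from the sort. The labels do not say so, and the part of the sort in this value was not tested. Another 4 markers first reached 10 FPKM in E11.5 limb MCPs and 10 in E14.5 limb MCPs, including the tryptase gene Tpsb2 (605, against 0.21 at E11.5) and the chymase gene Mcpt4 (86.8, against 0.12).

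Fcer1a came with the last group of 3 markers, the receptor genes Mrgprb1 and Mrgprb2 and the prostaglandin D synthase gene Hpgds. Mrgprb2, the mast cell receptor for basic secretagogues, stood at 145 FPKM in skin against 0.81 in E14.5 limb MCPs. Mitf, a regulator of mast cell genes, did not reach 10 FPKM in any library (highest 8.94, in E14.5 limb MCPs). Against Kit, Ms4a2 held a ratio between 0.145 and 0.250 over the 4 mast cell lineage libraries, while Fcer1a over Kit was 0.0163, 0.00811, 0.00771 and 0.0913.

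Basophils also carry the receptor, so their genes are given beside it. Mcpt8, the basophil protease, was listed at 0 in EMPs and read 0.50 to 4.79 FPKM in the 4 mast cell lineage libraries. The 12 basophil markers, of which Prss34 is also on the mast cell list, summed to 69.98 FPKM in skin (2 at 10 FPKM or more, 5 listed at 0) against 102 in E14.5 limb MCPs (3 and 1). All genes summed to 84036 FPKM in skin against 149251 in E14.5 limb MCPs, with 11440 against 14937 genes above 0. The direction between the basophil sums therefore depends on scaling. The members did not move as one: Prss34 read 12.05 in skin against 60.4 in E14.5 limb MCPs, and Cd200r3, a basophil and mast cell receptor, 40.7 against 16.2, in the direction of Fcer1a. Their part in the Fcer1a value was not tested. Collagen and skin genes were at 12.8 in sum in skin against 68.9 in E14.5 limb MCPs.

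**Figure D4:**
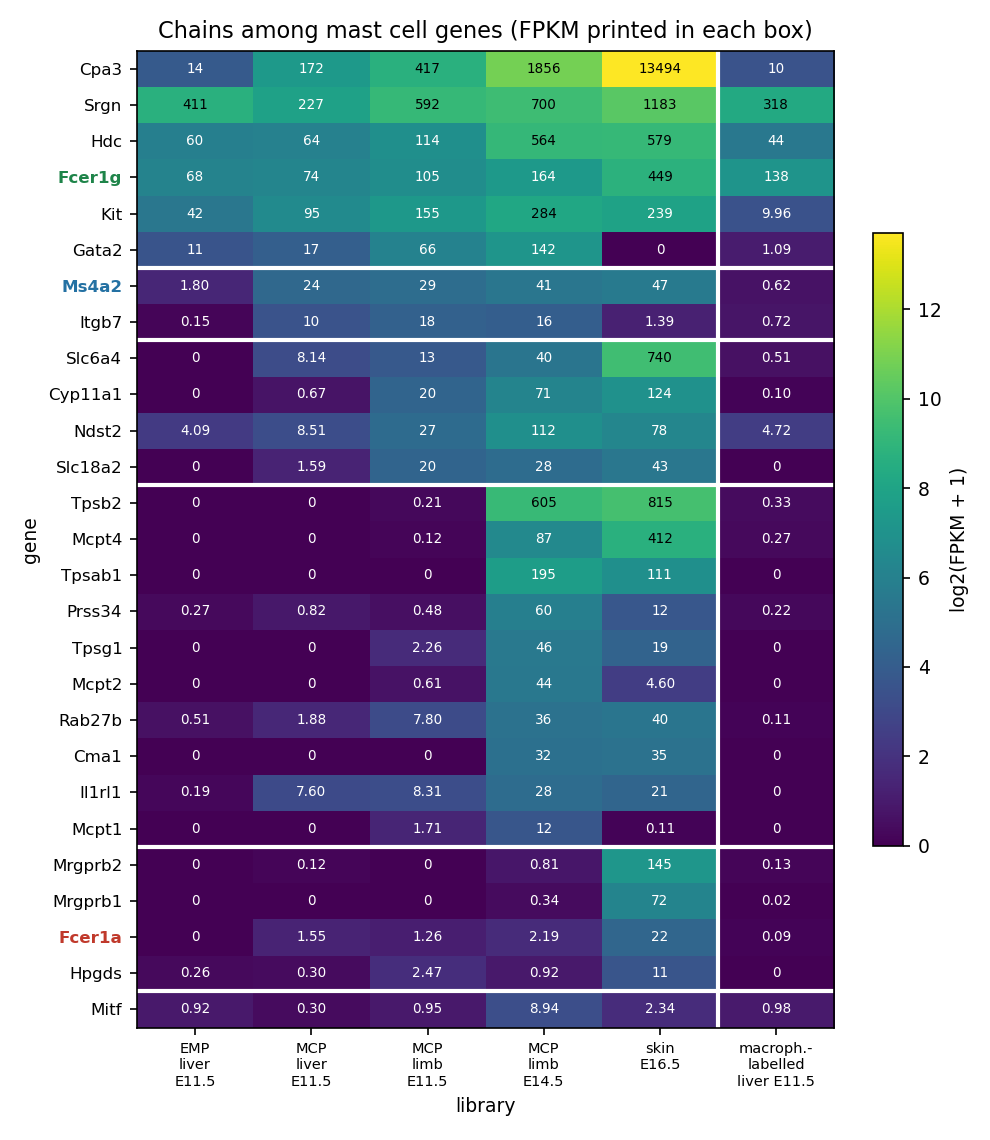
FPKM of the 3 chains (coloured names) and 24 mast cell markers (rows) in the 6 libraries (columns), with colour showing log2(FPKM + 1); white lines group genes by the first library, from EMPs to skin, with 10 FPKM or more, and Mitf at the foot had none. Fcer1g, Ms4a2 and Fcer1a fall into the first, the second and the last of the groups above Mitf.

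The gamma chain has other partners, and 16 receptor genes known to pair with it were listed. In each library 2 of them stood at 10 FPKM or more, Fcgr3 and Csf2rb. Fcgr3, the low-affinity activating IgG receptor, stood at 30.3 FPKM for EMPs, 36.9 in liver MCPs, 39.4 and 33.6 in E11.5 and E14.5 limb MCPs, 32.5 in skin and 41.7 in the macrophage-labelled library. As deposited it was nearly level while Fcer1a and Fcer1g were not. Scaled to equal sums it would stand higher in skin, where all genes summed to 84036 FPKM, against 149251 in E14.5 limb MCPs. Csf2rb, the shared beta subunit of the interleukin 3 and GM-CSF receptors, which is known to pair with the gamma chain in basophils, ranged over 53.4 to 99.8. Fcgr1, the high-affinity IgG receptor, was highest in the macrophage-labelled library at 2.92.

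IgE and IgG receptor alpha chains stood in very different proportions. Fcer1a over Fcgr3 was 0.0420 in liver MCPs, 0.0320 and 0.0651 in E11.5 and E14.5 limb MCPs, and 0.673 in skin. Fcer1g over Fcgr3 was 2.01, 2.67, 4.87 and 13.8 in the same order. Fcgr2b, the inhibitory IgG receptor, read 10.47 FPKM in liver MCPs, then 6.88 and 3.12 in limb and 3.93 in skin, against 14.6 in EMPs. In skin Fcer1a exceeded Fcgr2b (5.56 times), and in the other libraries it was below it (at most 0.702 times).

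Tyrobp (DAP12), the other widely used myeloid adaptor with an ITAM, was above Fcer1g in EMPs, liver MCPs, both limb libraries and the macrophage-labelled one, at 102 to 322 FPKM. Skin had 26.6 FPKM, against 217 in E14.5 limb MCPs, a difference of -2.98 that was called lower. In that comparison 33.4% of 2759 genes were called lower, and the median difference was -1.42. Fcer1g over Tyrobp was 0.672 in EMPs, 0.668 in liver MCPs, 0.342 and 0.754 in E11.5 and E14.5 limb MCPs and 16.9 in skin, and 0.428 in the macrophage-labelled library. Skin was thus the library in which the gamma chain exceeded Tyrobp.

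**Figure D5:**
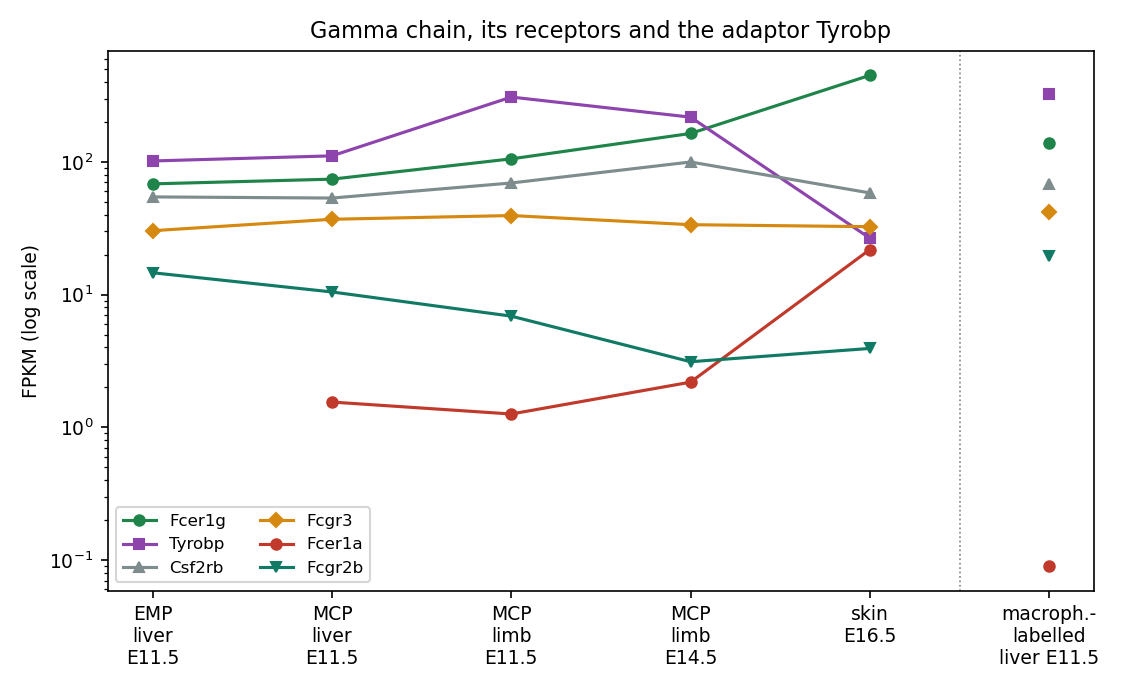
FPKM (log axis) of Fcer1g, 3 of its receptor partners (Csf2rb, Fcgr3, Fcer1a), the adaptor Tyrobp and the inhibitory receptor Fcgr2b in the 6 libraries; lines join the libraries from EMPs to skin, and Fcer1a has no point in EMPs, where it is listed at 0. Fcer1g and Tyrobp cross between E14.5 limb MCPs (164 and 217) and skin (449 and 26.6).

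Downstream of the receptor, 37 of 38 listed signalling genes were in the table. In liver MCPs against EMPs 0 were called higher and 2 lower of the 11 that passed the expression limit (1.78% and 3.09% of all genes), namely the calcium channel gene Orai1 (1.75 FPKM against 17.6) and the kinase adaptor gene Pik3ap1 (1.89 against 10.98). Their median difference was -0.13, against -0.08 over all genes at 1 FPKM or more. Limb MCPs at E11.5 against liver MCPs had 1 called higher, Prkcb (15.2 against 0.68; 1 of 10 passing, and 1.18% of all genes), and the step to E14.5 in limb had 0 of 14 in either direction (2.39% and 1.75% of all genes). The macrophage-labelled library had 0 of 11 called against EMPs (2.39% of all genes higher and 0.661% lower), and liver MCPs against it had Orai1 lower (1.75 against 11.7; 1 of 9, and 5.99% of all genes). Skin had 2 of 11 called lower, beside 33.4% of all genes, with a list median of -1.03 against -1.11 over all genes. These were Inpp5d, an inhibitory phosphatase gene (0.46 against 13.9), and Fyn, listed at 0 against 11.9. Lyn, the kinase that first phosphorylates the receptor, lay between 16.8 and 23.7 FPKM over the 4 mast cell lineage libraries. Syk read 1.69 in skin and 5.18 to 7.65 in the liver and limb MCPs, against 19.4 in EMPs.

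Of 22 transcription factors tied to the chain genes, 5 to 11 stood at 10 FPKM or more in each library. Gata2 read 16.9 FPKM in liver MCPs, then 66.2 and 142 in E11.5 and E14.5 limb MCPs, and was listed at 0 in skin, where Fcer1a was highest. Gata1 stood at 14.9, 16.3, 12.3 and 2.95 in those libraries, against 3.58 in EMPs. Spi1 was called lower in liver MCPs (15.4 against 108 in EMPs; 1 of 13 passing factors was called lower and 0 higher, beside 3.09% and 1.78% of all genes). In skin 2 of 10 were called lower, beside 33.4% of all genes: Gata2 and its partner Ldb1, both listed at 0.

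Genes next to the chains differed from them in level. Ms4a3, a granulocyte progenitor gene of the same family 5777 bases from Ms4a2 on the same strand, read 2.58 FPKM in liver MCPs against 48.6 in EMPs, and was called lower where Ms4a2 was called higher. It stood at 0.47 in E11.5 limb MCPs, was listed at 0 in E14.5 limb MCPs and skin, and read 25.2 in the macrophage-labelled library. Of the other 14 family members in the table, the one besides Ms4a3 to reach 10 FPKM was Ms4a6c, at 11.3 in the macrophage-labelled library. Pcp4l1, 33304 bases from Fcer1g, was like it highest in skin (13.1, against 8.18 in E14.5 limb MCPs). The 3 annotated neighbours of Fcer1a in the table, olfactory receptor genes, were at 0.32 FPKM or less throughout.

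No chain was among the 5 genes most like another chain. Likeness was the root mean square difference of log2(FPKM + 1) over the 6 libraries after centring each gene, among 3934 genes at 10 FPKM or more in some library. Nearest to Ms4a2 were Il1rl1, the interleukin 33 receptor gene (0.41), Ecm1 (0.49), the G protein gene Gna14 (0.49), Mns1 (0.54) and Asph (0.57). Nearest to Fcer1g were the kinase gene Camk2d (0.19), Wsb2 (0.23), the GTPase gene Rap1a (0.26), the SNARE gene Snap29 (0.26) and Smarca2 (0.31), and nearest to Fcer1a were Fam49a (0.40), Plgrkt (0.40), St6galnac3 (0.42), Dnase2b (0.46) and Gimap5 (0.48). Of the 3934 genes, Fcer1a came 107th from Ms4a2 (1.30), and Fcer1g 389th (1.75). From Fcer1a, Fcer1g came 68th (0.86) and Ms4a2 270th. From Fcer1g, Fcer1a came 258th and Ms4a2 2679th. The lists for Fcer1a and Fcer1g rested on the skin library: without it 0 of 5 and 1 of 5 of these genes remained, against 4 of 5 for Ms4a2.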

How the data were processed

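Bulk RNA-seq of 6 libraries was used. The authors deposited 1 table of FPKM values with 2 decimals, for which the submitters' processing notes name mm10 (GRCm38), Bowtie2 and RSEM. Tool versions: not given in the sources used here. Of 17913 rows, 4 with a repeated name were dropped. Groups came from the labels, 1 library each, and libraries were set against each other on the log2(FPKM + 1) scale with no test. A call needed a difference of at least 2 and 10 FPKM in either library.

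Read totals were estimated after the data were seen: over 1385 genes with a single transcript, the total was sought that made FPKM times length, less 49 bases, closest to whole reads. There, 78.8% to 81.9% of low values came within 0.2 of whole reads, where chance gives 40%. Intervals are exact Poisson or exact binomial (95%) on those reads, cover counting error only and depend on the transcript length used. The estimate and the calls were tested on simulated data.

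The chains, gene lists and rules were chosen with earlier results of these data known. Named genes were the chains, called or most abundant list members, the 5 genes nearest to each chain (predicted genes left out) and annotated neighbours within 100 kb (GENCODE M21). Syk, Gata1, Mitf, Mcpt8, Hpgds, Fcgr1, Fcgr2b, Fcgr3, Cd3d and Cd3e fall outside that rule and were chosen after their values were seen. Not every gene that the rule allows is described, and 1 is not reported here. Alternatives were pseudocounts of 0.1 and 5, no expression limit or 30 FPKM, median-of-ratios size factors (4580 genes), rescaling to equal sums (TPM), and 25 erythroid or abundant genes left out. Equal sums at the mean FPKM sum and leaving out the skin library were added after seeing the data. Python 3.11.15, pandas 2.3.3, numpy 2.4.6 and scipy 1.17.1 were used.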

Additional observations from a re-analysis of the deposited data

How the results depend on the processing

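Of 144 chain differences recomputed under 8 alternatives, 134 kept their direction and their side of the call rule, 4 lost a call and 6 gained one, and 0 changed direction. With 30 FPKM required, Ms4a2 in liver MCPs lost its calls against EMPs (3.15) and the macrophage-labelled library (3.94), as did Fcer1a in skin (2.84), since their values lie under that limit. A pseudocount of 5 also ended the Fcer1a call in skin (1.90). Scaled to TPM, where values are larger and more genes pass the limit, Fcer1a was called in liver MCPs against EMPs (3.47) and the macrophage-labelled library (2.83). Fcer1g in skin against E14.5 limb MCPs was called under TPM (2.28), size factors (2.61), rescaling without erythroid and abundant genes (2.53) and, chosen after seeing the data, equal sums at the mean FPKM sum (2.28). That comparison had 49 genes called higher and 922 lower as deposited, against 258 and 349 with size factors.

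With 1 added to each FPKM, Fcer1g over Ms4a2 was 24.7 for EMPs and 85.7 for the macrophage-labelled library, and Fcer1g over Fcer1a was 127 in the macrophage-labelled library and 29.4 in liver MCPs; 12 other ratios stayed inside their intervals. The step of first appearance (1 for EMPs to 5 for skin) moved with the limit: at 1 FPKM or under TPM it was 2 for Fcer1a and 1 for Ms4a2, and at 30 FPKM it was 4 for Ms4a2 and Fcer1a had none. Gamma was never later than beta, nor beta than alpha, but this is no check of the order. Fcer1g exceeded Ms4a2, and Ms4a2 exceeded Fcer1a, in each library on the path, so any shared limit gives that order. Of the 5 genes nearest to each chain, 0 remained for Fcer1a with a pseudocount of 0.1, 0 with 5 and 1 under TPM, 3 and 2 for Ms4a2 with 0.1 and under TPM, and 2 and 3 for Fcer1g with 5 and under TPM; without the skin library 0 remained for Fcer1a and 1 for Fcer1g. No paired analysis was possible because each group had 1 library. Depth limits Fcer1a outside skin, with at most 24 reads.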

Other observations

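Inhibitory receptors of mast cells differed from one another over the same libraries. Lilrb4a read 26.6 FPKM in skin against 0.36 in E14.5 limb MCPs, a difference of 4.34, and Cd200r1 10.4 in E14.5 limb MCPs against 1.69 at E11.5. Milr1, another gene on the list of inhibitory and other Ig receptors, stayed between 10.1 and 22.0 FPKM in the 6 libraries. Among the other adaptors with ITAMs, Cd3g, a chain of the T cell receptor complex, read 10.9 in liver MCPs and 24.8 in E11.5 limb MCPs, and was listed at 0 in EMPs, while Cd3e and Cd3d stood at 0.70 FPKM or less in those 3 libraries.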
